A study of Ovis aries with 16 samples.

Results

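Glutathione is made and used by a small set of enzymes, and 4 of their genes were examined in the livers of fetal sheep. They are *GSS* (ENSOARG00020003193), *GSTO1* (ENSOARG00020010357), *MGST1* (ENSOARG00020002129) and *GLRX* (ENSOARG00020011055), 4 of the 26478 genes in the count table. The genes were selected on their lower RNA in hypoxic than in normal pregnancies, as found in these same livers. That difference is therefore given below as a description. Calls on it are given for scale only and are no independent test. All 4 passed the filter on low values, 250 reads in at least 8 livers, which kept 8580 genes.

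PolyA-enriched RNA from 16 livers of singleton Welsh Mountain fetuses was sequenced in bulk, 1 library per liver, at about 0.9 of gestation. Ewes of both groups were housed for 30 days under their assigned oxygen, those of the 9 CON fetuses (5 male, 4 female) at atmospheric oxygen and those of the 7 HOX fetuses (3 male, 4 female) at 10% inspired oxygen in isobaric chambers. The comparison of the groups asks how a hypoxic pregnancy alters the developing liver. The CON libraries held between 24065959 and 29353692 counted reads, with a median of 27762095, and the HOX libraries between 23955166 and 33952503, with a median of 25055592. Expression is given as CPM, the reads of a gene relative to all reads on the tested genes of its library after TMM scaling, and as log2 CPM with a prior count of 2.

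Glutathione is a tripeptide of glutamate, cysteine and glycine that keeps the thiols of a cell reduced and is conjugated to reactive compounds so that they can be cleared. The liver holds much of it and releases it to the blood. Glutathione synthetase completes its synthesis, glutathione transferases use it on reactive or oxidised substrates, and glutaredoxins use it to reduce mixed disulphides on proteins.

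One liver stood apart from the rest. On the first principal component of log2 CPM over the tested genes (25.6% of the variance), the score of HOX animal 1 (female) was 64.4, against −15.6 to 6.23 in the remaining 15. That liver had the lowest *GSTO1*, *MGST1* and *GLRX* of all 16 livers and the highest *GSS* of the HOX group. Many of the results are therefore given with and without it.

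*GSS* encodes glutathione synthetase, which adds glycine in the last step of glutathione synthesis. It had a lowest value of 23.9, a median of 31.2 and a highest value of 39.1 CPM in the CON livers. In the HOX livers these were 15.5, 18.5 and 23.8 CPM. CON animals 4 and 7 were high and nearly equal, CON animal 2 was the lowest of its group, and HOX animals 1 and 4 were the highest of theirs. The groups did not overlap, but HOX animal 1 and CON animal 2 lay only 0.0697 CPM apart, less than the counting error of either value (0.833 and 0.932 CPM), and they did overlap when the libraries were scaled with DESeq2's size factors. Of all 8580 tested genes, 6 (0.0699%) had every HOX liver below every CON liver. Since *GSS*, the 1 of the 4 genes in this state, was selected on this contrast, nothing is read from that count. The means were 31.0 ± 5.35 (SD, *n* = 9) and 19.4 ± 3.04 CPM (SD, *n* = 7), a log2 fold change of −0.68 (SE 0.122) for HOX against CON. Without HOX animal 1 it was −0.73 (SE 0.120).

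*GSTO1* encodes an omega-class transferase with thioltransferase activity, found mainly in the cytosol. Its lowest, median and highest values were 71.6, 83.9 and 108 CPM in the CON livers. In the HOX livers they were 39.9, 61.0 and 79.8 CPM. CON animal 3 was the highest of all, HOX animals 1 and 7 were the lowest, and HOX animal 4 reached into the CON range, with the other 6 HOX livers below it. Means were 85.2 ± 10.8 (SD, *n* = 9) and 59.1 ± 13.0 CPM (SD, *n* = 7). The log2 fold change was −0.53 (SE 0.126), and −0.45 (SE 0.110) without HOX animal 1.

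*MGST1* encodes a transferase of the endoplasmic reticulum and outer mitochondrial membranes that also reduces lipid hydroperoxides. Its lowest, median and highest values were 112, 149 and 217 CPM in the CON livers. In the HOX livers they were 62.3, 94.9 and 179 CPM. HOX animal 4 lay well inside the CON range, above 5 of the 9 CON livers, and the other 6 HOX livers lay below all CON livers. Means were 163 ± 32.2 (SD, *n* = 9) and 102 ± 37.7 CPM (SD, *n* = 7), a log2 fold change of −0.68 (SE 0.186). This value moved to −0.86 without HOX animal 4 and to −0.59 without HOX animal 1.

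*GLRX* encodes glutaredoxin, which passes electrons from glutathione to protein disulphides. Its lowest, median and highest values were 10.3, 12.9 and 17.9 CPM in the CON livers. In the HOX livers they were 5.50, 9.26 and 11.7 CPM. CON animals 7 and 9 were the high livers, HOX animal 1 was the low one, and HOX animals 3 and 7 overlapped with the lower CON livers. It was also the gene closest to the filter. Of the CON livers 8 had at least 250 reads and of the HOX livers 3, and the fewest were 175 reads in HOX animal 4. Its passing the filter thus depended on the group in which it was higher. Means were 13.3 ± 2.79 (SD, *n* = 9) and 9.01 ± 2.10 CPM (SD, *n* = 7), a log2 fold change of −0.56 (SE 0.162), or −0.47 (SE 0.149) without HOX animal 1.

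**Figure D1:**
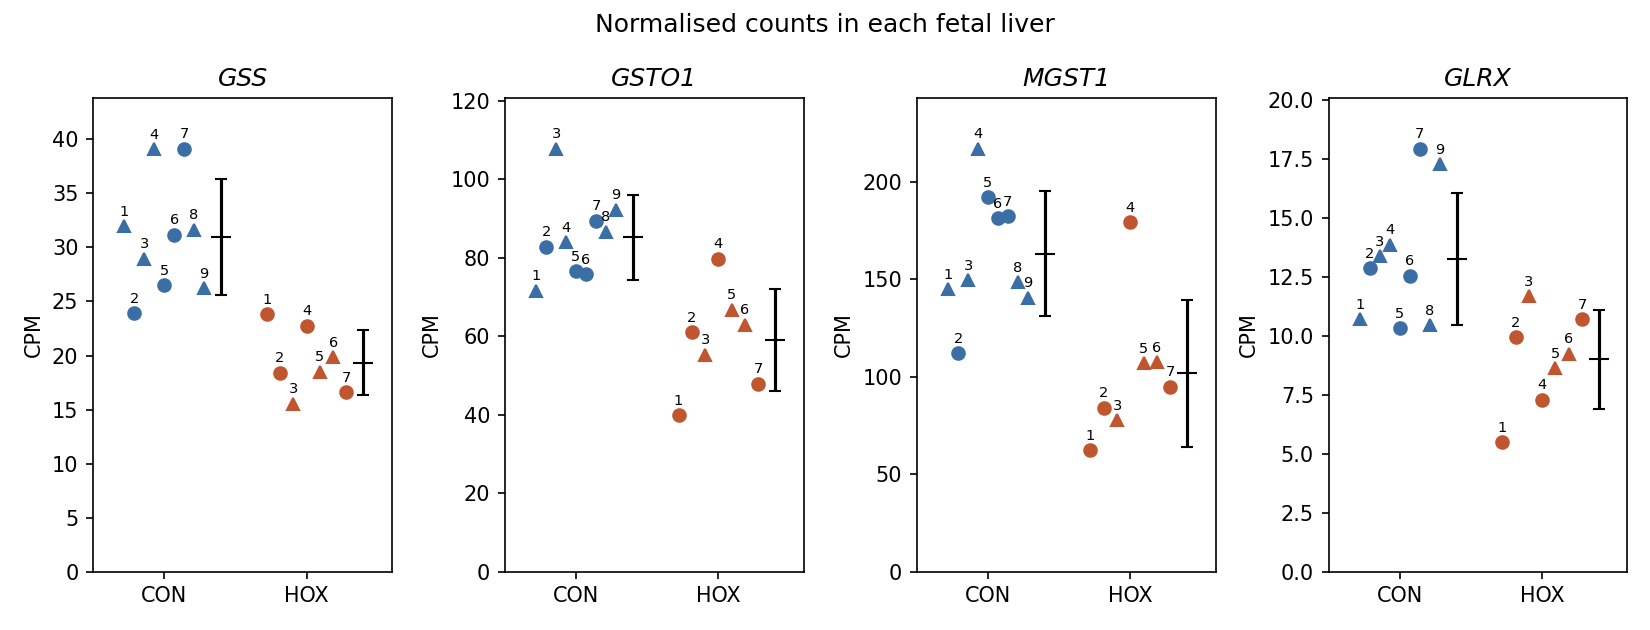
Normalised counts (CPM, axes from 0) of the 4 genes in each CON (blue, n = 9) and HOX (orange, n = 7) liver, with the animal number beside each point, triangles for males and circles for females, and black bars for the mean ± SD. HOX animal 4 lies within the CON range in *GSTO1* and *MGST1*, and HOX animal 1 is the lowest point in *GSTO1*, *MGST1* and *GLRX*.

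All 7 HOX livers were below the CON mean in *GSS*, *GSTO1* and *GLRX*, and 6 of 7 were in *MGST1*. Among all tested genes, 521 (6.07%) had every HOX liver below the CON mean. At an adjusted *P* under 0.15, the threshold of the study, edgeR called 5 of the 8580 genes lower in HOX (0.0583%), with *GSS* the 1 among the 4 genes, and DESeq2 called 138 lower (1.61%), with all 4 genes among them. In both directions DESeq2 called 237 genes here (2.76%), where the study listed 487 differential genes. The reason for the smaller number was not tested. These counts come from the contrast that selected the genes and are given for scale only. In bulk tissue, fewer cells of a type and less RNA per cell cannot be told apart.

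Markers of different cell types were also looked up, as far as they could be found. Symbols were known only for genes of the study's own list of differential genes, so each marker given here was itself picked from these livers. A difference between the groups was thus the condition for a marker to be found and is no result here. Markers that did not differ could not appear. Of 20 hepatocyte markers listed, 12 were found, with a summed level of 27127 ± 3173 CPM in CON and 19720 ± 3096 in HOX livers and *FGG*, a fibrinogen chain, the most abundant at a mean of 7556 CPM. Of 14 erythroid markers 6 were found, led by *ANK1*, with 335 ± 119 CPM in CON (from 202 to 579) and 527 ± 202 in HOX (from 292 to 830). The highest erythroid sums were those of HOX animals 4 and 7, and HOX animal 1 had the lowest of its group. The macrophage gene *CD163* (1 of 5 markers) measured 323 ± 58.1 and 213 ± 83.3 CPM, and the endothelial and stem cell gene *CD34* (1 of 5) 13.7 ± 6.97 and 28.3 ± 12.8 CPM, in CON and HOX. The *CD163* of HOX animal 1, at 61.9 CPM, was the lowest of all livers. For stellate cells and fibroblasts, 3 of 9 markers summed to 218 ± 25.7 and 250 ± 50.1 CPM, and their directions differed. *TGFBI*, the most abundant over all livers, had a lower mean in HOX (120 ± 17.0 CPM in CON and 85.3 ± 31.3 in HOX), and *ASPN* (58.2 ± 9.64 and 75.9 ± 10.5) and *THBS4* (39.6 ± 11.1 and 88.9 ± 48.5) had higher ones. Of the 12 hepatocyte markers 11 had a lower mean in HOX and 1 a higher one, and all 6 erythroid markers had a higher one. Nothing is read from these counts, since the markers were picked on this contrast. None of these markers was at 0 reads in any liver. Their part in the lower levels of the 4 genes was not tested.

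Fetal sex took no part in the choice of the genes and was tested across all 8580. With treatment in the model, the female minus male log2 difference was 0.04 (SE 0.124) for *GSS*, −0.12 (SE 0.125) for *GSTO1*, 0.08 (SE 0.188) for *MGST1* and −0.09 (SE 0.163) for *GLRX*. None of the 4 genes was called by edgeR (adjusted *P* from 0.974 to 0.988), and 2 of the 8580 genes were (0.0233%). DESeq2 called 7 genes, again none of the 4. In each gene the difference was smaller than its standard error, and males and females overlapped in both groups. Within HOX, for example, *MGST1* measured 97.4 ± 17.0 CPM in 3 males and 105 ± 51.1 in 4 females, the wide female range running from HOX animal 1 to HOX animal 4.

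Whether the HOX against CON difference itself depended on sex was tested as an interaction. The interaction was 0.25 (SE 0.251) for *GSS*, 0.01 (SE 0.260) for *GSTO1*, 0.05 (SE 0.390) for *MGST1* and −0.27 (SE 0.334) for *GLRX* on the log2 scale, with an edgeR adjusted *P* of 0.999 for each. No gene passed the threshold in edgeR (0 of 8580, 0.0%), 281 had an unadjusted *P* under 0.05, and DESeq2 called 6, none of them among the 4. Without HOX animal 4, edgeR called 3 of 8514 genes, again none of the 4. With 3 to 5 fetuses of each sex in a group, the standard errors leave room for sizeable differences in either direction.

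The spread between livers differed among the 4 genes. In the CON livers the SD of log2 CPM was 0.24 for *GSS*, 0.18 for *GSTO1*, 0.29 for *MGST1* and 0.29 for *GLRX*, against a median of 0.24 over all tested genes. *GSTO1* was the steadiest of the 4, with a lower SD in 25.2% of tested genes, and *MGST1* and *GLRX* were the most variable, with a lower SD in 65.5% and 65.7%. In the HOX livers the SD was 0.22, 0.33, 0.48 and 0.37 in the same order, and the median over tested genes was 0.28. *MGST1* stood highest there, with a lower SD in 82.7% of genes, and *GSS* lowest, with a lower SD in 34.7%. In CPM, the coefficient of variation of *MGST1* was 19.7% in CON and 37.0% in HOX livers, and its highest HOX liver had 2.87 times the CPM of its lowest.

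The SD expected from the number of reads alone is given for scale, as livers of separate animals are expected to differ by more. It was largest for *GLRX*, at 0.08 in CON and 0.09 in HOX on the log2 scale, and the observed SD was 3.68 and 3.90 times as large. In HOX the smallest such ratio was that of *GSS*, at 3.53. For *MGST1*, with 2141 to 5204 reads per liver, the observed SD was 12.9 and 17.0 times the counting SD. The spread in HOX rested in part on single livers. Without HOX animal 4 the HOX SD of *MGST1* was 0.30, and without HOX animal 1 it was 0.25 for *GSTO1* and 0.24 for *GLRX*. In CON, that of *GSTO1* was 0.13 without animal 3. The difference in spread between the groups was not tested.

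How the 4 genes varied together was examined within each group, where the difference between the group means does not enter. The choice of the genes also rested on the spread within groups, and its bearing on the correlations was not tested. Correlations of log2 CPM were computed for 6 pairs in 2 groups, with two-sided exact permutation tests adjusted over the 12 correlations, and called at an adjusted *P* under 0.05. Of the 12, 1 was called.

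That pair was *GSS* and *GLRX* in the HOX livers. Ordered by *GSS* from low to high, the 7 livers were animals 3, 7, 2, 5, 6, 4 and 1, and ordered by *GLRX* from high to low they were animals 3, 7, 2, 6, 5, 4 and 1. The order of one gene was thus the reverse of the other but for animals 5 and 6, which exchanged places. Animal 3 had 15.5 CPM of *GSS* and 11.7 of *GLRX*, and animal 1 had 23.8 and 5.50. Pearson's *r* was −0.940 (exact permutation *P* = 0.000595, adjusted *P* = 0.00714, *n* = 7), and Spearman's rho was −0.964 (exact permutation *P* = 0.00278, adjusted *P* = 0.0333).

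The direction did not rest on any single liver, but the call did not hold in most fits with 6 livers. Leaving out each HOX liver in turn gave an *r* from −0.958 to −0.924. Leaving out the 2 livers farthest from the median of *GSS*, animals 1 and 4, gave −0.871 over 5 livers. Both are at the high end of *GSS*, and animal 3, at the low end, stayed in, so no fit left out both ends. The 5 livers are too few to test the call, since the smallest possible exact permutation *P* is 0.00833 before adjustment over 12. In 5 of the 7 fits with 6 livers, the one without HOX animal 1 included (*r* = −0.946, exact permutation *P* = 0.00694, adjusted *P* = 0.0583), the adjusted *P* was no longer under 0.05. In the other 2, without HOX animal 5 or 6, it was 0.0167. Among the correlations of *GSS* with the 8579 other tested genes in HOX, 11 were lower than that with *GLRX*, and among those of *GLRX*, 36 were lower than that with *GSS*.

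In the CON livers the same pair had an *r* of 0.250 (exact permutation *P* = 0.510, adjusted *P* = 0.956, *n* = 9) and a rho of 0.217 (exact permutation *P* = 0.581, adjusted *P* = 0.951). CON animal 7 was highest in both genes, and CON animal 9 was among the lowest in *GSS* and among the highest in *GLRX*. Without CON animal 7, *r* was −0.108. Whether the correlation differs between the groups was not tested.

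**Figure D2:**
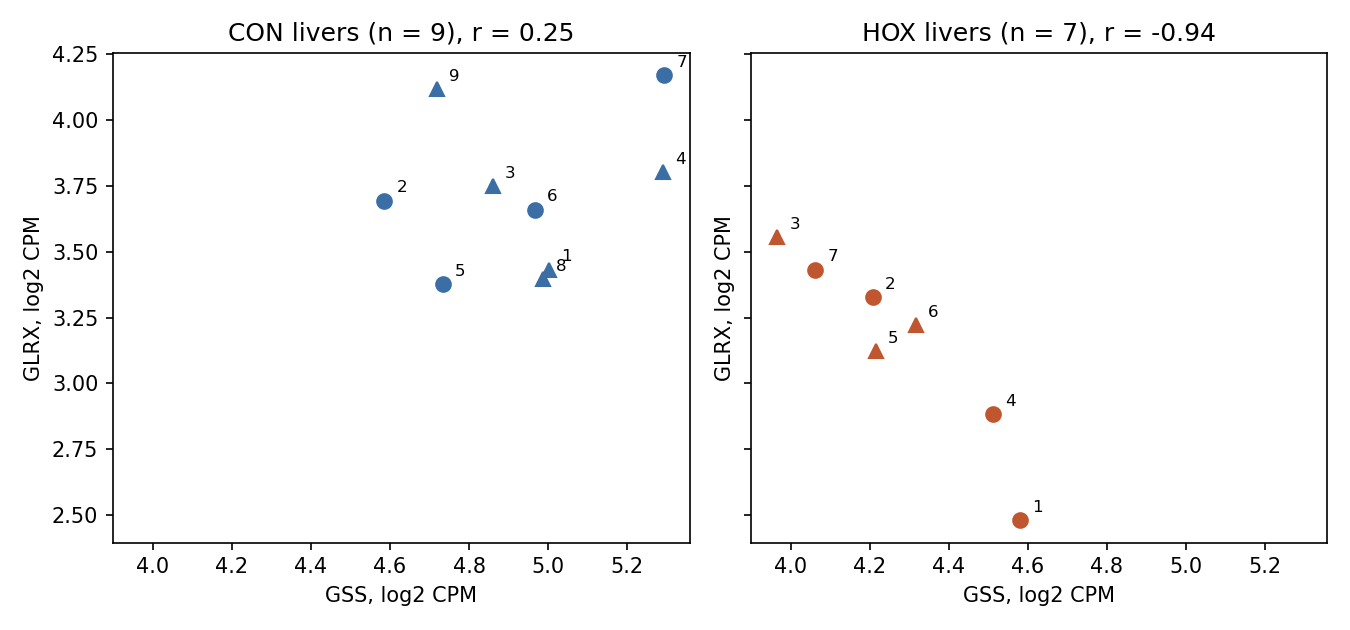
Log2 CPM of *GSS* (horizontal) and *GLRX* (vertical) in the CON (left) and HOX (right) livers, labelled by animal number, with triangles for males and circles for females. The HOX livers run from high *GLRX* and low *GSS* in animal 3 to the reverse in animal 1 (*r* = −0.940), and the CON livers show no such order (*r* = 0.250).

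The 2 transferases varied together in the HOX livers. HOX animal 4 was the highest in both *GSTO1* and *MGST1*, HOX animal 1 the lowest in both, and in 6 of the 7 livers both genes were above or both below their group means. Pearson's *r* was 0.864 (exact permutation *P* = 0.0147, adjusted *P* = 0.0881, *n* = 7) and rho was 0.857 (exact permutation *P* = 0.0238, adjusted *P* = 0.143), short of the threshold. Without HOX animal 1 alone, *r* was 0.787 (exact permutation *P* = 0.0722, adjusted *P* = 0.124, *n* = 6). Without HOX animals 1 and 4, which are farthest from the median of *GSTO1*, *r* was 0.417 over 5 livers, so much of the relation rests on those 2. In the CON livers the pair had an *r* of −0.163 (exact permutation *P* = 0.680, *n* = 9) and a rho of −0.050 (exact permutation *P* = 0.912).

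*GSS* and *MGST1* had the highest correlation among the CON livers. CON animal 2 was the lowest in both genes, and animals 4 and 7 were high in both. Pearson's *r* was 0.686 (exact permutation *P* = 0.0419, adjusted *P* = 0.168, *n* = 9) and rho was 0.567 (exact permutation *P* = 0.121, adjusted *P* = 0.362). It did not pass the threshold in the 9 livers. Of the fits that left out a single CON liver, only that without animal 5 passed (*r* = 0.885, exact permutation *P* = 0.00357, adjusted *P* = 0.0214). That liver is low in *GSS* and high in *MGST1*. With any other CON liver left out, the adjusted *P* of the exact permutation test was from 0.179 to 0.576. Of the 8579 other tested genes, 131 had a higher *r* with *GSS* in CON than *MGST1* did. Without the 2 livers farthest from the median of *GSS*, *r* was 0.494 over 7 CON livers.

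*GSTO1* and *GLRX* had an *r* of 0.516 (exact permutation *P* = 0.154, adjusted *P* = 0.462, *n* = 9) and a rho of 0.617 (exact permutation *P* = 0.0857, adjusted *P* = 0.343) in the CON livers, with both genes above or both below their means in 7 of 9 livers. Without the 2 livers farthest from the median of *GSTO1*, *r* was 0.674. In CON, *r* was close to 0 for *GSS* and *GSTO1* (−0.0229, exact permutation *P* = 0.953, rho −0.0667 with *P* = 0.880) and for *MGST1* and *GLRX* (0.0484, exact permutation *P* = 0.894, rho 0.0167 with *P* = 0.982).

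HOX animal 1 decided most of the other correlations in its group. In the 7 livers, *r* was 0.0274 for *GSS* and *GSTO1*, 0.205 for *GSS* and *MGST1*, 0.208 for *GSTO1* and *GLRX* and 0.0223 for *MGST1* and *GLRX*, with exact permutation *P* from 0.655 to 0.956. Their rho was 0.179, 0.214, −0.214 and −0.179, with exact permutation *P* of 0.662 or 0.713. In the 6 other livers it was 0.873, 0.893, −0.901 and −0.927 in the same order, with exact permutation *P* from 0.00972 to 0.0333 and adjusted *P* from 0.0583 to 0.0800 (*n* = 6). In these 6 livers rho was 0.886, 0.943, −0.943 and −0.886, with exact permutation *P* of 0.0333, 0.0167, 0.0167 and 0.0333. In those 6 livers *GSS*, *GSTO1* and *MGST1* thus had positive correlations with each other and negative ones with *GLRX*, and none of the 6 passed the threshold. HOX animal 4, high in the first 3 genes and low in *GLRX*, was the other liver with much weight, and without it *r* was −0.405 for *GSS* and *GSTO1* and −0.380 for *GSS* and *MGST1*.

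**Figure D3:**
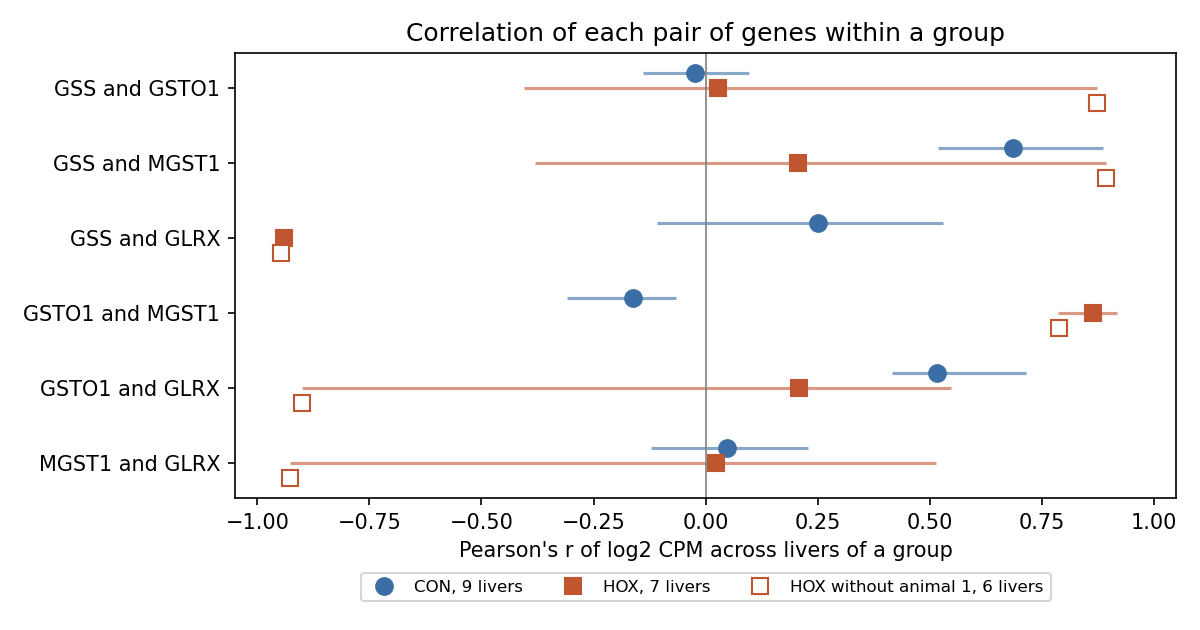
Pearson's *r* of log2 CPM (horizontal axis) for each pair of genes in the 9 CON livers (circles), the 7 HOX livers (filled squares) and the 6 HOX livers without animal 1 (open squares), with lines for the range when each liver is left out in turn. The range is narrow for *GSS* and *GLRX* in HOX (−0.958 to −0.924) and crosses 0 for 4 of the 6 pairs in that group.

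The fetal liver also forms blood cells, so the genes were set against the mean log2 CPM of *ANK1*, *CPOX*, *EPOR* and *TFRC*, erythroid genes that the study picked from these livers. These are 4 of the 6 erythroid markers found, and *SLC11A2* and *CDAN1* were not part of the mean. Of the 8 correlations (4 genes in 2 groups), 0 had an adjusted *P* under 0.05, and 0 an unadjusted exact permutation *P* under 0.05. The one farthest from 0 was that of *MGST1* in HOX, with an *r* of 0.667 (exact permutation *P* = 0.0929, adjusted *P* = 0.678, *n* = 7) and a rho of 0.714 (exact permutation *P* = 0.0881, adjusted *P* = 0.705). It stayed above 0 with each HOX liver left out in turn (0.396 without animal 4 to 0.851 without animal 5, where the exact permutation *P* was 0.0361 and the adjusted *P* 0.289) and was −0.0962 without the 2 livers farthest from the median of the erythroid mean. *GSTO1* had an *r* of −0.486 in CON (exact permutation *P* = 0.186, *n* = 9). It ran from −0.770 without animal 6 (exact permutation *P* = 0.0226, adjusted *P* = 0.181) to −0.350 without animal 1. Without the 2 livers farthest from the median of the erythroid mean it was −0.000537. In HOX the *r* of *GSTO1* was 0.405 (exact permutation *P* = 0.375, *n* = 7). For *GSS* the values were 0.0885 and −0.0949, for *GLRX* −0.307 and 0.323, and for *MGST1* in CON 0.252, with exact permutation *P* from 0.421 to 0.827. Over these 7 correlations rho lay between −0.383 and 0.429 (exact permutation *P* from 0.312 to 0.840). Without HOX animal 1, *r* in the 6 other HOX livers was 0.373 for *GSS*, 0.0182 for *GSTO1*, 0.511 for *MGST1* and −0.234 for *GLRX*, so that *GSS* and *GLRX* changed sign and *GSTO1* came close to 0.

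The genes most like each of the 4 were sought by the smaller of 2 correlations, that within the 9 CON and that within the 7 HOX livers, among the 428 other tested genes with a symbol. All of these symbols come from the study's list, and the correlations are descriptive. Nearest to *GSS* were *GTPBP4* (*r* = 0.601 in CON and 0.783 in HOX), *LSM4* (0.586 and 0.832) and *PIGK* (0.585 and 0.630), and most opposite was *NTN1* (−0.865 and −0.827). Nearest to *GSTO1* were *PBXIP1* (0.761 and 0.768) and *TGFBI* (0.720 and 0.844), and most opposite was *TM6SF1* (−0.705 and −0.756). For *MGST1* they were *SUGP1* (0.700 and 0.704), *SEC62* (0.638 and 0.686) and *LECT2* (0.607 and 0.632), with *NTN1* (−0.730 and −0.653) again the most opposite. For *GLRX* they were *NOTUM* (0.624 and 0.764), *TGFBI* (0.523 and 0.636) and *ENTPD8* (0.513 and 0.700), with *STRAP* (−0.664 and −0.825) the most opposite.

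None of the 4 genes was among the 3 nearest to another. Ranked in the same way among all 8579 other tested genes, *MGST1* was the 907th most like *GSS*, while *GLRX* was at place 8568. That place comes from the HOX livers alone (*r* = 0.250 in CON and −0.940 in HOX). The choice of nearest genes depended on HOX animal 1. Without it, 2 of the 12 nearest genes were again among the 3 nearest to the same gene, *TGFBI* for *GSTO1* being one, *MGST1* became the nearest of the symbol-bearing genes to *GSS* (0.686 in CON and 0.893 in HOX) and *GSS* the third nearest to *MGST1*.

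Other genes of the same chemistry could be named only through the study's list, which was drawn from the same contrast, so neither their directions nor the counts of calls among them are independent of it. For scale, 1022 of all 8580 tested genes (11.9%) had an unadjusted *P* under 0.05 in edgeR for HOX against CON, and DESeq2 called 237 (2.76%). Of 51 genes listed for glutathione metabolism, 4 were found, the 4 described here, with a median log2 fold change of −0.62 for HOX against CON beside 0.01 over all tested genes (−0.53 beside −0.01 without HOX animal 1). Of 36 genes listed for thioredoxins, peroxiredoxins and the supply of NADPH, 11 identifiers were found. The median was −0.33 (−0.42 without HOX animal 1), with 10 lower and 1 higher in HOX, and edgeR called 0 of the 11, where 6 had an unadjusted *P* under 0.05 and DESeq2 called 4. *TXN2*, mitochondrial thioredoxin, depended most on HOX animal 1, at −0.06 (SE 0.124) with it and −0.21 (SE 0.0714) without. *SELENOF*, a selenoprotein of the endoplasmic reticulum, was at −0.19 (SE 0.109) and −0.30 (SE 0.0792). *CBR1*, a carbonyl reductase with 2 identifiers, was at −0.76 (SE 0.159) and −0.78 (SE 0.292), *PTGR1*, a reductase of prostaglandins and lipid aldehydes, at −0.75 (SE 0.264), and *ATOX1*, a copper chaperone, at −0.44 (SE 0.130). The 1 above 0 was *TXNRD2*, the mitochondrial thioredoxin reductase, at 0.33 (SE 0.186), or 0.45 (SE 0.143) without HOX animal 1.

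Of 23 genes listed for the supply of cysteine and glycine, 7 were found, 5 lower and 2 higher in HOX, with a median of −0.31 (−0.33 without HOX animal 1). All 7 had an unadjusted *P* under 0.05, edgeR called 0 of them and DESeq2 called 4. *PSAT1* and *PSPH*, enzymes of serine synthesis, were at −0.86 (SE 0.208) and −0.84 (SE 0.252), and *GCSH*, a part of the glycine cleavage system, at −0.45 (SE 0.131). The amino acid transporters *SLC6A9* and *SLC38A2* were the 2 above 0, at 0.75 (SE 0.329) and 0.92 (SE 0.268). Without HOX animal 1 these were 0.90 (SE 0.303) and 0.55 (SE 0.186), so a large part of the *SLC38A2* value rests on that liver. The study's text gives *SLC38A2* as increased but *SLC6A9* as decreased in HOX livers, so the direction of *SLC6A9* found here differs from the stated one.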

How the data were processed

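RNA came from frozen liver. The deposited values are unnormalized counts per gene that the authors made by mapping with STAR 2.7.10b (assembly ARS-UI_Ramb_v1.0), and no filter had been applied. The counting rule is not given in the sources used here, so reads shared with related transferase genes are uncertain. Groups, animal numbers and sex came from the labels. All 16 columns were used, and no 2 libraries were duplicates (chi-square per degree of freedom at least 63.2).

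The 8580 genes that reached 250 reads in 8 or more livers (97.7% of reads) were fitted with edgeR 4.0.16 in R 4.3.3 (quasi-likelihood test, TMM, robust=FALSE, Benjamini-Hochberg adjustment, called at an adjusted *P* under 0.15, the threshold of the study). The study names DESeq2, run here as an alternative (1.42.0). A standard error is the unshrunken log2 fold change divided by the square root of F. Python 3.11.15 (pandas 2.3.3, numpy 2.4.6, scipy 1.17.1, matplotlib 3.10.9) was used for correlations, exact permutation tests and figures. The code was tested on simulated data.

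The named genes are the 4 genes, the 3 nearest and the 1 most opposite to each, and members of the pathway and marker lists with an identifier, 1 of which is not reported here. The 4 genes and the lists were chosen with earlier results of these data known. Symbols came from the study's list of differential genes (438 of 487 identifiers), and the gene table of another assembly, ARS-UI_Ramb_v3.0, matched 0 identifiers. Promoter and protein sequences were not used here. Alternatives covered the scaling, the test, the filter, the prior count, sex as a covariate, the animal number as a block and leaving out livers.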

Additional observations from a re-analysis of the deposited data

How the results depend on the processing

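The log2 fold changes of the 4 genes between HOX and CON stayed below 0 and moved by less than the SD between livers in all 23 alternatives each. Their lowest and highest values were −0.73 and −0.61 for *GSS*, −0.60 and −0.45 for *GSTO1*, −0.86 and −0.59 for *MGST1* and −0.62 and −0.47 for *GLRX*. The number of genes called across the table depended far more on the choices. edgeR called 5, DESeq2 237 (99 higher, 138 lower) and edgeR without a filter on low counts 1 of 21171. Leaving out each liver in turn gave 1 to 47 calls, the 47 without HOX animal 5, with 12 without HOX animal 1, 10 without CON animal 6 and 8 without CON animal 2, 3 without CON animal 1, 2 without CON animal 3 or 8, and 1 without CON animal 4 or 9 or HOX animal 2, 3, 6 or 7. Within those 16 fits *GSS* was called in 7, *GSTO1* in 2, *MGST1* in 1 and *GLRX* in 0, given for scale only since this contrast selected the genes. The cause of the changes in the number of calls was not tested.

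With the animal number as a replicate block (animals 1 to 7 of both groups), edgeR called 0 genes, where 739 had an unadjusted *P* under 0.05. The same 14 livers without the block, an alternative chosen after seeing the data, gave 1 call, in each case among 8404 genes that passed the filter. Blocked log2 fold changes were −0.68 for *GSS*, −0.51 for *GSTO1*, −0.75 for *MGST1* and −0.54 for *GLRX*. The numbers are shared only as numbers. Over tested genes, deviations of same-numbered livers correlated from −0.314 to 0.153, above 0.1 in 3 of 7 pairs, and 0 of 7 CON livers correlated best with the HOX liver of their own number.

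In the fit of all 16 livers the sex differences and interactions were within their standard errors of 0. With a liver left out, 5 of 64 sex differences and 12 of 64 interactions were beyond them, such as −0.20 (SE 0.107) for *GSTO1* without HOX animal 4 and an interaction of 0.40 (SE 0.238) for *GSS* without CON animal 7, and 4 and 11 changed sign. Ranges for female minus male were −0.0245 to 0.105 for *GSS*, −0.20 to −0.07 for *GSTO1*, −0.0704 to 0.162 for *MGST1* and −0.19 to −0.01 for *GLRX*. Those of the interaction were 0.15 to 0.40 for *GSS*, −0.18 to 0.14 for *GSTO1*, −0.32 to 0.22 for *MGST1* and −0.41 to −0.10 for *GLRX*. None was called.

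Of the correlations in CON, leaving out each liver in turn gave −0.139 to 0.0972 for *GSS* and *GSTO1*, 0.518 to 0.885 for *GSS* and *MGST1*, −0.108 to 0.530 for *GSS* and *GLRX*, and −0.121 to 0.228 for *MGST1* and *GLRX*. In HOX the ranges were −0.405 to 0.873 for *GSS* and *GSTO1*, −0.380 to 0.893 for *GSS* and *MGST1*, −0.958 to −0.924 for *GSS* and *GLRX*, −0.901 to 0.548 for *GSTO1* and *GLRX* and −0.927 to 0.514 for *MGST1* and *GLRX*. Leaving out the 2 livers farthest from the median turned *r* to −0.0867 (*GSS* and *GLRX*) and −0.0395 (*MGST1* and *GLRX*) in CON, and to −0.773 (*GSTO1* and *GLRX*) and −0.844 (*MGST1* and *GLRX*) in HOX. For *GSS* and *GLRX* in HOX it gave −0.871 over 5 livers, where the smallest possible exact permutation *P* is 0.00833 before adjustment, so the call was not tested by it. With DESeq2's size factors *r* of *MGST1* and *GLRX* in HOX was −0.0337. Removing the mean of each sex, or a prior count of 0.5, changed no call.

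For the erythroid mean, alternatives were added after seeing the data. Leaving out each liver in turn reversed *r* of *GSS* (−0.0609 to 0.429 in CON and −0.542 to 0.373 in HOX) and of *GLRX* in HOX (−0.234 to 0.668), and kept the sign of the other 5, among them *MGST1* in HOX (0.396 to 0.851) and *GSTO1* in CON (−0.770 to −0.350). Leaving out the 2 livers farthest from the median gave 0.530 for *GSS* in CON and reversed *GLRX* in CON (0.449) and *GSTO1* (−0.800) and *MGST1* (−0.0962) in HOX.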
